A study of Mus musculus with 20 samples.

Results

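A set of 9 TGF-beta signalling genes was examined across the hippocampus of 4 groups of mice: the ligands Tgfb1, Tgfb2 and Tgfb3, the receptors Tgfbr1 and Tgfbr2, and the Smads Smad2, Smad3, Smad4 and Smad7. The 9 genes were chosen by name, with earlier results of these data known, as rows of a count table of 39056 genes. All 9 passed the filter on low counts that left 16107 genes for testing. The mice were females of the C57BL/6 strain, behaviourally tested from 12 months of age, with 1 stranded mRNA library from the left hippocampus of each and 5 mice per group. WT Non-Tg mice had an intact miR-34a gene and no transgene, and KO Non-Tg mice lacked miR-34a and had no transgene. WT Tg-SwDI mice carried an amyloid precursor protein transgene with the Swedish, Dutch and Iowa mutations, expressed from a Thy1 promoter that is active mainly in neurons, and KO Tg-SwDI mice carried that transgene and lacked miR-34a. No group received a treatment, and the Tg-SwDI model is a single transgenic line. Each mouse is given below by its group with its label's replicate number. The miR-34a gene itself was not analysed here. Counts of Gm13067, a noncoding gene annotated near it that was picked once its values were known, were 0 to 3 across the 10 WT mice and 3 to 11 across the 10 KO mice.

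TGF-beta ligands are secreted as latent dimers that are held outside the cell until integrins or proteases release them. The active ligand binds the receptor Tgfbr2, which recruits and phosphorylates Tgfbr1, and Tgfbr1 then phosphorylates Smad2 and Smad3. These join Smad4 and enter the nucleus, while Smad7 blocks the receptors and is itself induced by the signal. In the adult brain, Tgfb1 is known as a product of microglia, which need it to keep their resting identity, and Tgfb2 is made mainly by neurons and astrocytes.

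Transcripts of the pathway divided into genes that followed the transgene and genes that did not. Tgfb1, Tgfbr1 and Tgfbr2 rose in Tg-SwDI mice of both miR-34a genotypes, from 1.76-fold to 3.71-fold. Within Tg-SwDI mice, Tgfb1 and Tgfbr2 were also higher in the KO than in the WT group, and Tgfb1, of the 9, passed the test of the interaction between transgene and miR-34a. Under other ways of processing, the Tgfbr2 result was lost in 13 of 29 and the Tgfb1 interaction in 8 of 27. Both KO differences were lost with the replicate number fitted as a block. Smad7 rose modestly in KO mice, and Tgfb2, Tgfb3, Smad2, Smad3 and Smad4 passed no test in the main analysis.

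The sequence of miR-34a is shown because its absence separates the KO from the WT groups, and sites that match it are shown for Tgfbr1 and Tgfb3. The mature mmu-miR-34a-5p lies at chr4:150068473-150068494 on the plus strand (RefSeq, GRCm38.p6), and its seed, bases 2 to 8, is in capitals. Each site is a stretch of 30 bases of a 3′UTR (GENCODE M21, GRCm38) with the 7 letters of the match in capitals. A 7mer-A1 pairs with bases 2 to 7 and ends in an A opposite base 1, and a 7mer-m8 pairs with bases 2 to 8.
mmu-miR-34a-5p: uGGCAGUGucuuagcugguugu
Tgfbr1, 7mer-A1 at chr4:47411043-47411049, plus strand: ttttaaagacaACTGCCAgcccttagggag
Tgfbr1, 7mer-A1 at chr4:47411602-47411608, plus strand: gataagcagtgACTGCCAtgcgggaacacc
Tgfb3, 7mer-m8 at chr12:86057281-86057287, minus strand: atcatatcttgCACTGCCtggaattaagga

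In the longest annotated 3′UTR of each gene, Tgfbr1, Tgfb3 and Smad7 held at least 1 match, and no match was found in the other 6 members. Among 14709 tested genes with an annotated 3′UTR, 23.6% held at least 1 match. At the threshold of the test, neither Tgfbr1 nor Tgfb3 was higher in KO than in WT mice, with or without the transgene. Tgfb1 and Tgfbr2, which did differ among Tg-SwDI mice, held no match in 3′UTRs of 135 and 6085 bases. The Tgfb1 3′UTR gave little sequence to search, beside 4154 bases in Tgfbr1. The part of seed matches in the KO differences was not tested. A match is a description of letters and was not taken as a binding site.

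Promoters are shown for the 3 members that rose in both genotypes, for Tgfbr1 that of the first of 2 annotated starts, as the 250 bases before the start of transcription (RefSeq, GRCm38.p6), with each GC box, GGGCGG or its reverse complement CCGCCC, in capitals.
Tgfb1, chr7:25686752-25687001, plus strand: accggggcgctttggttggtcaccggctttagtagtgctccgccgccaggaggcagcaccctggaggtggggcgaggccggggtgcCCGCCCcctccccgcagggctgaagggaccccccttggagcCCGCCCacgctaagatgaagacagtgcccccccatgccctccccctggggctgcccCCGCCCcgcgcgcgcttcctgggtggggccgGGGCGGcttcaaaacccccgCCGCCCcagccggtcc
Tgfbr1, chr4:47352972-47353221, plus strand: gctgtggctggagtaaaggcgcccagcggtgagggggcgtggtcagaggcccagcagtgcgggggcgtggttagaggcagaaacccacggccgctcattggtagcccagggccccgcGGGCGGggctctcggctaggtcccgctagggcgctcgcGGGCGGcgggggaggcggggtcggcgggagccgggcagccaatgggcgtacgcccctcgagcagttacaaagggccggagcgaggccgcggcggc
Tgfbr2, chr9:116175364-116175613, minus strand: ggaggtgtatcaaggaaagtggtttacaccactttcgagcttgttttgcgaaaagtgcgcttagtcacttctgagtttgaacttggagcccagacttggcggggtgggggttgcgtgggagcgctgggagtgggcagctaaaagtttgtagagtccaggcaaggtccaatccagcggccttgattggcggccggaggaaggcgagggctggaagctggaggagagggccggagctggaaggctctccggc

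The Tgfb1 window held 5 GC boxes, the Tgfbr1 window 2 and the Tgfbr2 window 0, while 32.7% of 32851 promoter windows of that length held at least 1. The GC content was 75.2%, 74.8% and 58.4% in that order, against a median of 52.4% over all windows. None of the 3 windows held the AP-1 letters TGANTCA, the Smad letters GTCTAGAC or CAGACA, or the PU.1-type letters GAGGAAGT on either strand. The window before the second Tgfbr1 start, chr4:47385966-47386215, held 1 CAGACA match and 0 GC boxes and had a GC content of 52.8%, and 17.1% of all windows held CAGACA.

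By length, Smad3 was the most abundant member in WT Non-Tg mice. In RPKM, which divides counts by library size and by the length of all annotated exons of a gene, Smad3 stood at 16.7 ± 0.977 (SD, n = 5), Smad4 at 11.2 ± 0.240 and Tgfb2 at 10.3 ± 1.21. Tgfbr1 followed at 5.35 ± 0.306 RPKM, Tgfb3 at 4.12 ± 0.341, Smad7 at 4.04 ± 0.187, Tgfbr2 at 3.10 ± 0.515, Smad2 at 3.03 ± 0.217 and Tgfb1 at 1.68 ± 0.245 (SD, n = 5 each). In this order the ranges of Smad4 and Tgfb2 overlapped, as did those of each neighbouring pair from Tgfb3 down to Smad2, whereas Smad3 lay above Smad4, Tgfb2 above Tgfbr1, Tgfbr1 above Tgfb3 and Smad2 above Tgfb1 in every mouse. The place of Tgfb1 depended on the length used: divided by its longest transcript, an alternative chosen after seeing the data, it stood at 3.3 ± 0.481 (SD, n = 5), with ranges that overlapped those of Tgfb3 and Smad2. In KO Tg-SwDI mice Tgfb1 reached 5.16 ± 0.593 RPKM, Tgfbr2 8.0 ± 0.597 and Tgfbr1 10.4 ± 1.87 (SD, n = 5).

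All 20 libraries held between 19549622 and 21066868 counts on genes, and the 9 members had between 118 and 2173 counts in every mouse. Thy1, whose promoter drives the transgene, was at 685 to 769 CPM, a count scaled to library size by TMM factors, in Non-Tg mice, 1900 to 2330 in WT Tg-SwDI mice and 2450 to 3320 in KO Tg-SwDI mice, so Tg-SwDI mice were clear of Non-Tg mice and the Tg-SwDI groups did not overlap. Xist lay between 326 and 666 CPM in the mice, all labelled female. KO Tg-SwDI replicate 8 stood apart, with a chi-square of 40.3 to 60.8 per degree of freedom against its 4 group mates, while the 36 other pairs within groups lay between 2.39 and 17.6. Summed CPM of 12 choroid plexus genes ranged from 271 to 726 in KO Non-Tg mice and from 307 to 6880 in the other groups, a tissue that borders the hippocampus. Summed CPM of 10 microglia genes was 443 to 619 (WT) and 442 to 477 (KO) in Non-Tg mice and 1030 to 1240 (WT) and 1340 to 1680 (KO) in Tg-SwDI mice. The labelled tissue had its defining genes in every library, with 6 hippocampal field genes summing to between 683 and 839 CPM. Since the tissue was sequenced in bulk, a change in the number of cells of a type cannot be told apart from a change in RNA per cell.

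**Figure D1:**
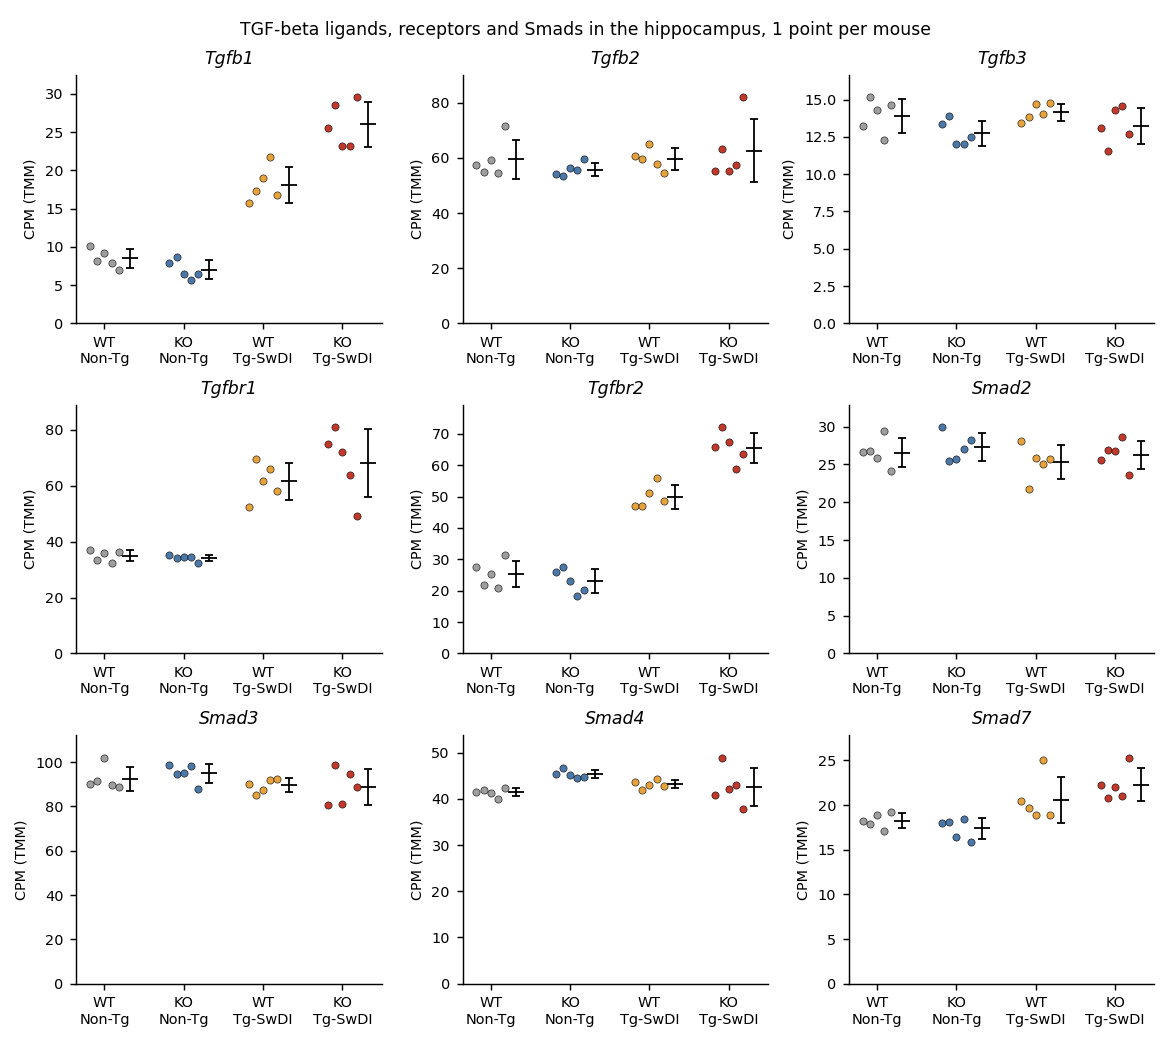
CPM scaled by TMM factors (y axis, from 0) of each of the 9 members in the 4 groups (x axis), with 1 point per mouse and the mean and SD of 5 mice beside each group. Tgfb1 stepped up from 5.66 to 10.2 CPM in the 10 Non-Tg mice to 15.7 to 21.8 in WT Tg-SwDI and 23.2 to 29.6 in KO Tg-SwDI mice, whereas Smad3 stayed between 80.8 and 102 CPM in all 20 mice.

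Tgfb1 (ENSMUSG00000002603, chromosome 7, 25687002 to 25705077, plus strand) encodes the ligand that maintains microglia. In WT Non-Tg mice it was at 10.2, 8.13, 9.25, 7.95 and 6.97 CPM in replicates 2, 3, 4, 6 and 7, and in KO Non-Tg mice at 7.89, 8.63, 6.42, 5.66 and 6.38 CPM in replicates 1, 2, 4, 7 and 8. In WT Tg-SwDI mice it was at 15.7, 17.3, 19.0, 21.8 and 16.7 CPM in replicates 3, 4, 5, 6 and 7, and in KO Tg-SwDI mice at 25.6, 28.6, 23.2, 23.2 and 29.6 CPM in replicates 1, 2, 3, 5 and 8. The Tg-SwDI mice were all above the Non-Tg mice, the KO Tg-SwDI mice were all above the WT Tg-SwDI mice, and the 2 Non-Tg groups overlapped. KO Tg-SwDI replicate 8, the library that stood apart, had the highest value. Every comparison that Tgfb1 passed was also passed without that library. Between Tg-SwDI and Non-Tg mice the log2 fold change was 1.89 in KO mice (standard error 0.12, adjusted p = 5.68e-12) and 1.09 in WT mice (standard error 0.12, adjusted p = 2.21e-07). Unless an alternative or the permutation test is named, adjusted values are Benjamini-Hochberg values over the 16107 genes from the quasi-likelihood fit in edgeR. These are 3.71-fold and 2.13-fold higher levels.

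Loss of miR-34a went with higher Tgfb1 in Tg-SwDI mice, where the log2 fold change of KO over WT was 0.52 (standard error 0.11, 1.44-fold, edgeR adjusted p = 0.0145). In Non-Tg mice the same comparison gave a log2 fold change of -0.28 (standard error 0.12, edgeR adjusted p = 0.582), which passed no threshold after adjustment. Tested as an interaction in edgeR, these 2 effects differed by 0.80 on the log2 scale (standard error 0.16, adjusted p = 0.0216). Over 29 alternatives the edgeR and DESeq2 adjusted p of the KO difference in Tg-SwDI mice ranged from 0.000933 to 0.0585, with the highest value when WT Tg-SwDI replicate 7 was left out. With the replicate number fitted as a block, a fit outside the 29, the call of that difference was lost. Among the alternatives without the block the interaction was less stable. It was no longer called in 8 of 27 alternatives, namely with the choroid plexus score as a covariate (edgeR adjusted p = 0.0558) and without WT Non-Tg replicate 2 or 4, KO Non-Tg replicate 4, 7 or 8, or WT Tg-SwDI replicate 3 or 7 (edgeR adjusted p from 0.0506 to 0.0618), while its size stayed between 0.73 and 0.89.

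Microglia genes moved in the same direction as Tgfb1. Of the 10 microglia genes, all of them present in every group, 10 rose with the transgene in each genotype, 4 were higher in the KO group when Tg-SwDI mice were compared and 3 passed the interaction test. Over all genes, 12.5% were called higher with the transgene in KO mice and 3.94% in WT mice. Between KO and WT Tg-SwDI mice 1.48% of all genes were called higher, and 0.608% passed the interaction test. Set against their summed CPM, Tgfb1 was at 1.36% to 1.88% (WT) and 1.28% to 1.81% (KO) without the transgene and at 1.42% to 1.85% (WT) and 1.41% to 2.21% (KO) with it, and these ranges overlapped between all groups. The part of the microglia in the Tgfb1 result was not tested, nor was that of Thy1, which was also higher in KO Tg-SwDI mice. Across the 5 mice of each Tg-SwDI group, the correlation of log2 CPM with the GC content of genes was -0.242 to -0.015 in WT and -0.009 to 0.248 in KO libraries, so that this property of the libraries also separated them. After the removal of GC and length trends, the KO difference of Tgfb1 in Tg-SwDI mice was a log2 of 0.49 (edgeR adjusted p = 0.0202) and its interaction 0.75 (edgeR adjusted p = 0.0409).

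**Figure D2:**
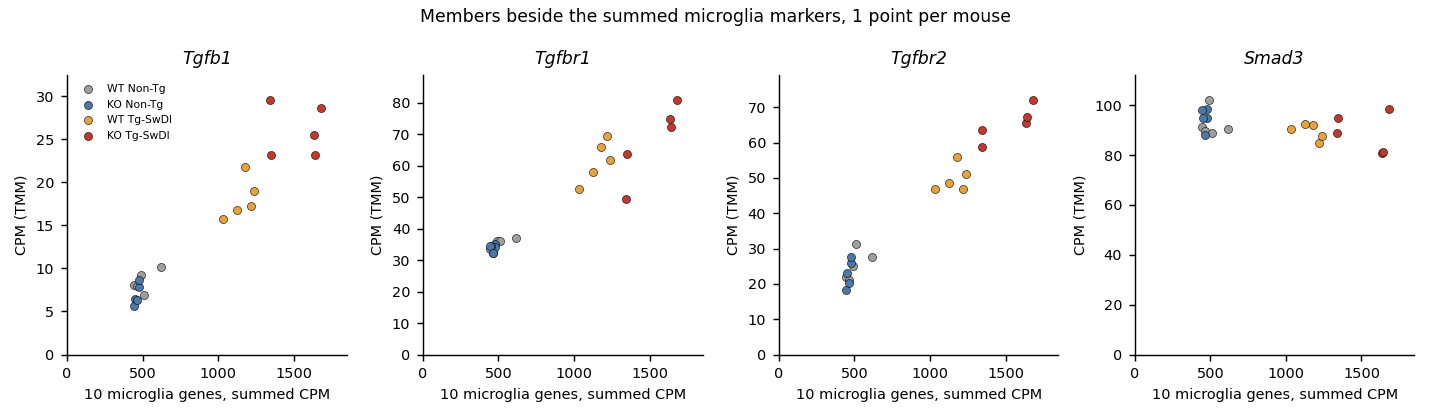
CPM of Tgfb1, Tgfbr1, Tgfbr2 and Smad3 (y axes, from 0) against the summed CPM of 10 microglia genes (x axes) in 20 mice, coloured by group. Tgfb1, Tgfbr1 and Tgfbr2 climb together with the microglia sum from 442 to 1680 CPM, and Smad3 stays level between 80.8 and 102 CPM.

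Tgfb2 (ENSMUSG00000039239, chromosome 1, 186622792 to 186705989, minus strand), the ligand of neurons and astrocytes, did not pass the test in any comparison. Non-Tg mice had 54.4 to 71.5 CPM (WT) and 53.3 to 59.5 CPM (KO), Tg-SwDI mice had 54.7 to 65.1 CPM (WT) and 55.1 to 82.0 CPM (KO), and the groups overlapped throughout. The log2 fold change between Tg-SwDI and Non-Tg mice was 0.17 in KO mice (2 standard errors either side, -0.02 to 0.35) and 0.00 in WT mice (-0.18 to 0.18). KO Tg-SwDI replicate 8, the library that stood apart, had the 82.0 CPM, and its group mates had 55.1 to 63.3 CPM. Over 29 alternatives the difference in KO mice ranged from 0.05 to 0.21. Tgfb3 (ENSMUSG00000021253, chromosome 12, 86056745 to 86079041, minus strand) was at 12.3 to 15.2, 12 to 13.9, 13.4 to 14.8 and 11.5 to 14.6 CPM in the same order of groups. Its log2 fold change between KO and WT mice was -0.10 with the transgene (2 standard errors either side, -0.25 to 0.05) and -0.13 without it (-0.28 to 0.03). Exons of Tgfb2 and Tgfb3 are overlapped on the opposite strand by predicted genes, and the strand setting of the counting was not given in the sources used here.

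The ligand mixture changed through Tgfb1. As a share of the RNA of the 3 ligands, in counts per kilobase of exon, Tgfb1 made up 10.6% ± 1.85 (WT) and 9.37% ± 1.51 (KO) in Non-Tg mice and 19.9% ± 2.13 (WT) and 26% ± 1.78 (KO) in Tg-SwDI mice (SD, n = 5 each). Tgfb2 remained the main ligand in every group, from 65.1% ± 2.85 in KO Non-Tg to 54.1% ± 3.27 in KO Tg-SwDI mice (SD, n = 5). The Tgfb1 share was 16.6 percentage points higher with the transgene in KO mice, 9.31 points higher in WT mice and, among Tg-SwDI mice, 6.12 points higher in the KO group, with p = 0.00794 in an exact two-sided permutation test for each, the smallest it can give with 5 against 5, and adjusted p = 0.0106 over 4 comparisons. Between the Non-Tg groups the share differed by -1.19 points (exact permutation p = 0.317, adjusted p = 0.317). With the longest transcript as the length the Tgfb1 share was higher throughout, at 17.4% ± 2.85 (WT) and 15.6% ± 2.37 (KO) in Non-Tg mice and 30.7% ± 2.82 (WT) and 38.5% ± 2.16 (KO) in Tg-SwDI mice (SD, n = 5 each). By exon length, the shares of the 2 Tg-SwDI groups did not overlap, at 17.7% to 23.4% in WT and 24.4% to 28.3% in KO mice.

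**Figure D3:**
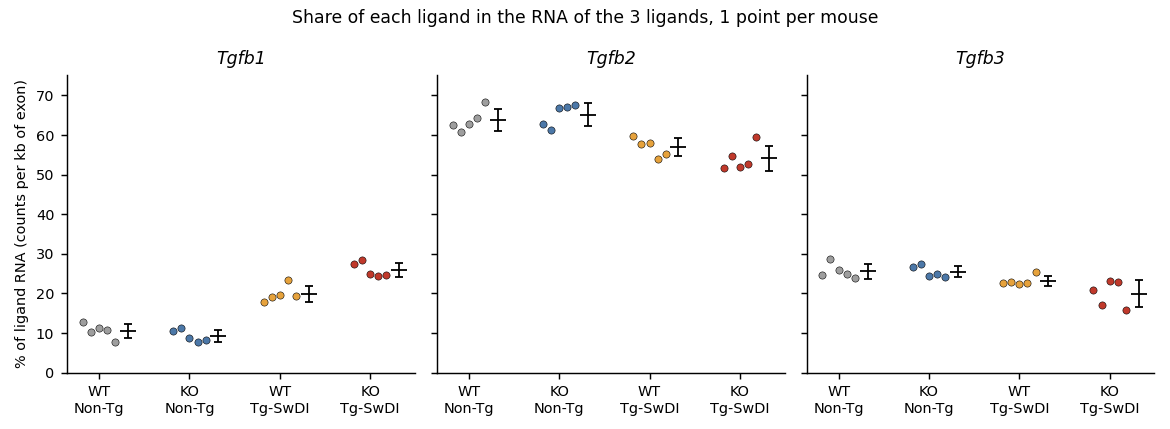
Share of Tgfb1, Tgfb2 and Tgfb3 in the RNA of the 3 ligands (y axis, percent of counts per kilobase of exon, from 0) in the 4 groups, with 1 point per mouse and the mean and SD of 5 mice. The Tgfb1 share lay between 7.66% and 12.7% in Non-Tg mice and between 17.7% and 28.3% in Tg-SwDI mice.

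Tgfbr2 (ENSMUSG00000032440, chromosome 9, 116084293 to 116175360, minus strand) is the receptor that binds the ligand first. It was at 27.5, 21.9, 25.2, 21 and 31.3 CPM in WT Non-Tg replicates 2, 3, 4, 6 and 7 and at 26, 27.6, 23, 18.2 and 20.4 CPM in KO Non-Tg replicates 1, 2, 4, 7 and 8. With the transgene it was at 47.0, 47.0, 51.1, 56.0 and 48.5 CPM in WT replicates 3, 4, 5, 6 and 7 and at 65.7, 72.0, 67.4, 58.8 and 63.4 CPM in KO replicates 1, 2, 3, 5 and 8. The order was that of Tgfb1, with no overlap between the Tg-SwDI groups or between Tg-SwDI and Non-Tg mice. The transgene difference was a log2 of 1.51 in KO mice (standard error 0.11, 2.84-fold, edgeR adjusted p = 3.33e-10) and 0.97 in WT mice (standard error 0.11, 1.97-fold, edgeR adjusted p = 8.46e-07). Between KO and WT Tg-SwDI mice the log2 fold change was 0.39 (standard error 0.10, 1.31-fold, edgeR adjusted p = 0.0478), close to the threshold. That call was lost in 13 of 29 alternatives, namely with no filter (0.0893), with library size alone (0.0867) and without any one of WT Non-Tg replicate 4, KO Non-Tg replicates 4 and 8, WT Tg-SwDI replicates 3, 4, 5 and 7 and KO Tg-SwDI replicates 1, 2, 3 and 8 (edgeR adjusted p from 0.0529 to 0.113), although the log2 fold change stayed between 0.35 and 0.44. The replicate block, outside the 29, lost that call as well. The interaction of Tgfbr2 was a log2 of 0.53 (standard error 0.15, edgeR adjusted p = 0.0875).

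Tgfbr1 (ENSMUSG00000007613, chromosome 4, 47353222 to 47414931, plus strand) is the signalling partner of Tgfbr2. It was at 37.0, 33.6, 35.9, 32.2 and 36.1 CPM in WT Non-Tg replicates 2, 3, 4, 6 and 7 and at 35.1, 34.2, 34.4, 34.4 and 32.4 CPM in KO Non-Tg replicates 1, 2, 4, 7 and 8. With the transgene it was at 52.5, 69.3, 61.7, 66.0 and 57.9 CPM in WT replicates 3, 4, 5, 6 and 7 and at 74.7, 80.8, 72.1, 63.8 and 49.2 CPM in KO replicates 1, 2, 3, 5 and 8. Every Tg-SwDI mouse was above every Non-Tg mouse, and the 2 Tg-SwDI groups overlapped. KO replicate 8, the library that stood apart, was the lowest of the 10 and KO replicate 5 lay within the WT range. The transgene difference was a log2 of 1.0 in KO mice (standard error 0.10, 2.0-fold, edgeR adjusted p = 3.45e-08) and 0.81 in WT mice (standard error 0.10, 1.76-fold, edgeR adjusted p = 2.20e-06). For Tgfbr1, which holds the first 2 seed matches shown above, the KO difference in Tg-SwDI mice was a log2 of 0.15 (2 standard errors either side, -0.04 to 0.33, edgeR adjusted p = 0.401). Without KO Tg-SwDI replicate 8 this difference was 0.25 (edgeR adjusted p = 0.0617).

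The receptors were also set against the microglia sum. Tgfbr1 was at 5.98% to 7.78% of that sum in the Non-Tg mice, 4.98% to 5.70% in WT Tg-SwDI mice and 3.67% to 4.80% in KO Tg-SwDI mice. Tgfbr2 was at 4.12% to 6.12% in the Non-Tg mice, 3.86% to 4.75% in WT Tg-SwDI mice and 4.02% to 4.73% in KO Tg-SwDI mice. The Tgfbr1 ranges thus fell without overlap from Non-Tg to WT and KO Tg-SwDI mice, while the Tgfbr2 ranges of the Tg-SwDI groups overlapped. These ratios are descriptions and were given no test.

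Smad2 and Smad3 are the Smads that the receptors phosphorylate, and Smad4 is their shared partner. Smad2 (ENSMUSG00000024563, chromosome 18, 76241580 to 76310963, plus strand) lay between 21.8 and 29.9 CPM, Smad3 (ENSMUSG00000032402, chromosome 9, 63646767 to 63757994, minus strand) between 80.8 and 102 CPM and Smad4 (ENSMUSG00000024515, chromosome 18, 73639009 to 73703780, minus strand) between 37.8 and 48.9 CPM over the 20 mice. The largest pairwise difference among them was that of Smad4 between the Non-Tg groups, at 40.0 to 42.4 CPM in WT and 44.6 to 46.8 CPM in KO mice, groups that did not overlap. Its log2 fold change was 0.13 (standard error 0.05) and did not pass adjustment in edgeR (adjusted p = 0.554). For the transgene difference the log2 fold changes were -0.05 and -0.07 for Smad2, -0.10 and -0.05 for Smad3 and -0.09 and 0.06 for Smad4 in KO and WT mice, respectively. After the removal of GC and length trends, Smad3 at -0.19 (edgeR adjusted p = 0.0158) and Smad4 at -0.20 (edgeR adjusted p = 0.00642) were called lower with the transgene in KO mice, and Smad4 was also called without KO Tg-SwDI replicate 2 at -0.13 (edgeR adjusted p = 0.0354).

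Smad7 (ENSMUSG00000025880, chromosome 18, 75367529 to 75395935, plus strand), the inhibitor that the pathway induces, held an 8mer match to the miR-34a seed in its 3′UTR, a class found in 6.0% of the genes searched. It was at 18.2, 17.8, 18.9, 17.1 and 19.2 CPM in WT Non-Tg replicates 2, 3, 4, 6 and 7 and at 18, 18.1, 16.4, 18.5 and 15.9 CPM in KO Non-Tg replicates 1, 2, 4, 7 and 8. With the transgene it was at 20.5, 19.7, 18.9, 25.1 and 18.9 CPM in WT replicates 3, 4, 5, 6 and 7 and at 22.3, 20.8, 22.1, 21 and 25.3 CPM in KO replicates 1, 2, 3, 5 and 8. KO Tg-SwDI mice lay above all Non-Tg mice, and WT Tg-SwDI mice overlapped both WT Non-Tg and KO Tg-SwDI mice. The highest value was that of KO Tg-SwDI replicate 8, the library that stood apart, and the transgene call in KO mice was kept without it. The transgene difference was a log2 of 0.36 in KO mice (standard error 0.08, 1.28-fold, edgeR adjusted p = 0.00125) and 0.17 in WT mice (standard error 0.08, edgeR adjusted p = 0.255), and the difference between these effects did not pass the test (edgeR adjusted p = 0.379). In KO mice 10 of the 12 choroid plexus genes also rose with the transgene, beside 12.5% of all genes. With the score of the choroid plexus genes as a covariate the Smad7 difference was 0.26 (edgeR adjusted p = 0.0624). Between KO and WT mice the log2 fold change of Smad7 was 0.11 with the transgene (2 standard errors either side, -0.04 to 0.26) and -0.07 without it (-0.22 to 0.08).

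Counted over the 9 members, 4 were called in the transgene comparison of KO mice, where 20.8% of the 16107 genes were called and 12.5% were called higher. In WT mice 3 members were called, against 4.41% of all genes called and 3.94% called higher. Between KO and WT Tg-SwDI mice 2 members were called, against 1.99% of all genes and 1.48% called higher, and for the interaction 1 member, against 0.608% of all genes. The split over all genes depended on the scaling: for the transgene in KO mice 2013 of 3351 calls were higher, against 1675 of 3467 with library size alone and 1510 of 4427 with GC and length trends removed, and between KO and WT Tg-SwDI mice 239 of 320, against 102 of 217 with library size alone. Every one of the members' calls was higher with the transgene, higher in KO mice or positive. No member was called between KO and WT Non-Tg mice, where 0% of the genes were called by edgeR, 1302 genes had an unadjusted p under 0.05, DESeq2 called 7 genes and edgeR's exactTest called 4. Averaged over both genotypes 4 members rose with the transgene, against 17.2% of all genes called, and averaged over transgene status 0 members differed between KO and WT, against 0.0807%. The median log2 fold change of the members was 0.17 in KO and 0.06 in WT mice for the transgene, beside medians over all genes of -0.01 and 0.00. The other 5 members passed no comparison. Since the members were chosen with earlier results of these data known, these counts are descriptions and no test of the set.

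**Figure D4:**
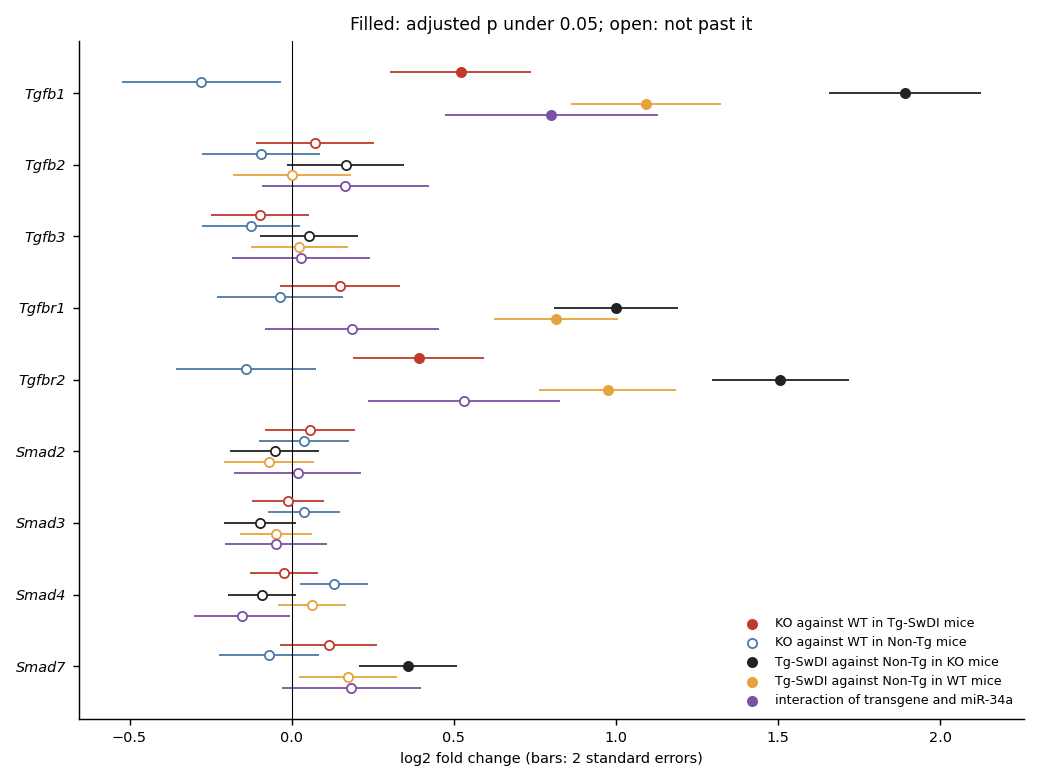
Log2 fold change (x axis) of each member (y axis) in the 4 pairwise comparisons and the interaction of transgene and miR-34a, with bars of 2 standard errors either side, filled where the edgeR adjusted p was under 0.05. Tgfb1, Tgfbr1 and Tgfbr2 lie between 0.81 and 1.89 in the transgene comparisons and the other members at 0.36 or below.

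Among genes that store and release the ligands, 17 of 19 were tested. With the transgene 6 of the 17 rose in KO mice, where 12.5% of all genes were called higher, and 3 rose and 1 fell in WT mice, where 3.94% of all genes were called higher. The median log2 fold change of the list was 0.11 in KO and 0.08 in WT mice, and that of all genes -0.01 and 0.00. Itgb5, a beta subunit that pairs with the alpha-v integrin, rose by a log2 of 1.25 in KO and 0.85 in WT mice (edgeR adjusted p = 3.94e-09 and 2.80e-06), from 49.1 ± 2.55 to 116 ± 12.3 CPM in KO mice (SD, n = 5). Itgb3, another alpha-v partner, rose by 1.28 and 1.07 (edgeR adjusted p = 1.08e-06 and 5.26e-05). Nrros, which tethers latent Tgfb1 on microglia, rose by 0.53 and 0.45 (edgeR adjusted p = 0.000780 and 0.0110, and 0.0605 in WT mice without WT Tg-SwDI replicate 4). Itgb1 rose by 0.28 in KO mice (edgeR adjusted p = 0.0233), a call lost in 6 of 29 alternatives.

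Ltbp4, which anchors latent TGF-beta in the matrix, went the other way in WT mice. Non-Tg mice had 66.2 ± 6.56 CPM (WT; SD, n = 5) and 57.9 to 80.7 CPM (KO), and Tg-SwDI mice had 51.3 ± 4.37 CPM (WT) and 65.7 ± 2.94 CPM (KO; SD, n = 5 each). It fell by 0.37 on the log2 scale with the transgene in WT mice (edgeR adjusted p = 0.00726) and, among Tg-SwDI mice, was higher in the KO group by 0.36 (edgeR adjusted p = 0.0307). The latter call was lost in 5 of 29 alternatives, with library size alone and without WT Tg-SwDI replicate 4, 5 or 7 or KO Tg-SwDI replicate 8, with an adjusted p of at most 0.0905. It was the only gene of the list called in that comparison, where 1.99% of all genes were called. In KO mice the transgene difference of Ltbp4 was a log2 of -0.02 (edgeR adjusted p = 0.886). Its interaction, 0.35, did not pass the test (edgeR adjusted p = 0.139).

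Of 13 co-receptors and further receptors of the family, 3 rose and 1 fell with the transgene in KO mice, where 20.8% of all genes were called. In WT mice 0 were called, beside 4.41% of all genes. Their median log2 fold change was 0.08 in KO and 0.09 in WT mice. The changes were those of the BMP receptor Bmpr1b (log2 0.27), the endothelial co-receptor Eng (0.29), the decoy receptor Bambi (0.41) and the activin receptor Acvr2a (-0.19), with edgeR adjusted p from 0.00315 to 0.00994. Eng, Bambi and Acvr2a were no longer called with the choroid plexus score as a covariate, and Eng was also not called with GC and length trends removed. Of the other Smads, Smad1, Smad5, Smad6 and Smad9, 0 of 4 were called in any pairwise comparison, beside 0% to 20.8% of all genes.

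Among 18 intracellular regulators, 2 rose and 4 fell with the transgene in KO mice, beside 20.8% of all genes called, and 1 rose in WT mice, beside 4.41%. Their median log2 fold change was -0.05 in KO and 0.02 in WT mice. Tgif1, a corepressor of Smad transcription, rose by a log2 of 1.41 in KO and 0.94 in WT mice (edgeR adjusted p = 1.58e-07 and 0.000186), from 1.85 ± 0.353 to 4.94 ± 0.741 CPM in KO mice (SD, n = 5). Pmepa1, a target gene that dampens the signal, rose by 0.58 in KO mice (edgeR adjusted p = 5.06e-06) and, among Tg-SwDI mice, was higher in the KO group by 0.32 (edgeR adjusted p = 0.0347). That second call was lost in 8 of 29 alternatives, namely the removal of the GC and length trend, library size alone, the compared groups alone and the fits without WT Tg-SwDI replicate 3, 5 or 7 or KO Tg-SwDI replicate 3 or 8, with an adjusted p of at most 0.136. The Smad phosphatase Ppm1a and the deubiquitinase Usp15 fell by 0.24 and 0.22 in KO mice (edgeR adjusted p = 0.00838 and 0.00851), calls that were lost with the choroid plexus covariate. That of Usp15 was also lost with GC and length trends removed.

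Target genes of TGF-beta were next counted. Of 22 listed genes 21 were tested, and 5 rose and 0 fell with the transgene in KO mice, beside 20.8% of all genes called and 12.5% called higher. In WT mice 0 were called, beside 4.41% of all genes, and 0 passed the interaction test, beside 0.608%. With shares this low, few or no calls would be expected among 21 genes. Id3, a regulator of differentiation, rose by a log2 of 0.50 in KO mice (edgeR adjusted p = 0.000805) and the protease inhibitor Timp1 by 1.08 (edgeR adjusted p = 0.00715), from 0.671 ± 0.154 to 1.41 ± 0.778 CPM (SD, n = 5), a call that was lost with the choroid plexus covariate (0.0835). The median log2 fold change of the list was 0.21 in KO and -0.14 in WT mice.

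The genes that microglia are known to express under TGF-beta rose together. With the transgene 12 of 12 rose in KO mice and 11 of 12 in WT mice, beside 12.5% and 3.94% of all genes, with medians of 1.14 and 0.79 on the log2 scale. The 10 microglia genes used above all rose too, with medians of 1.47 and 0.91, so the rise was not particular to this list. The part of TGF-beta in the rise was not tested. Csf1r, a growth factor receptor that microglia need to survive, went from 105 ± 7.69 to 276 ± 18.7 CPM in KO and from 105 ± 15.4 to 187 ± 14 CPM in WT mice (SD, n = 5 each). Between KO and WT Tg-SwDI mice, where 1.48% of all genes were called higher, 3 of 12 were higher, namely Csf1r (log2 0.56, edgeR adjusted p = 0.000673), the surface lectin Siglech (0.32, 0.0267) and the transcription factor Sall1 (0.27, 0.0391). Siglech lost its call in 6 and Sall1 in 9 of 29 alternatives, and Csf1r in 0. P2ry12, Tmem119, Cx3cr1 and Csf1r are among the genes of this list that also belong to the 10 microglia genes used above.

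**Figure D5:**
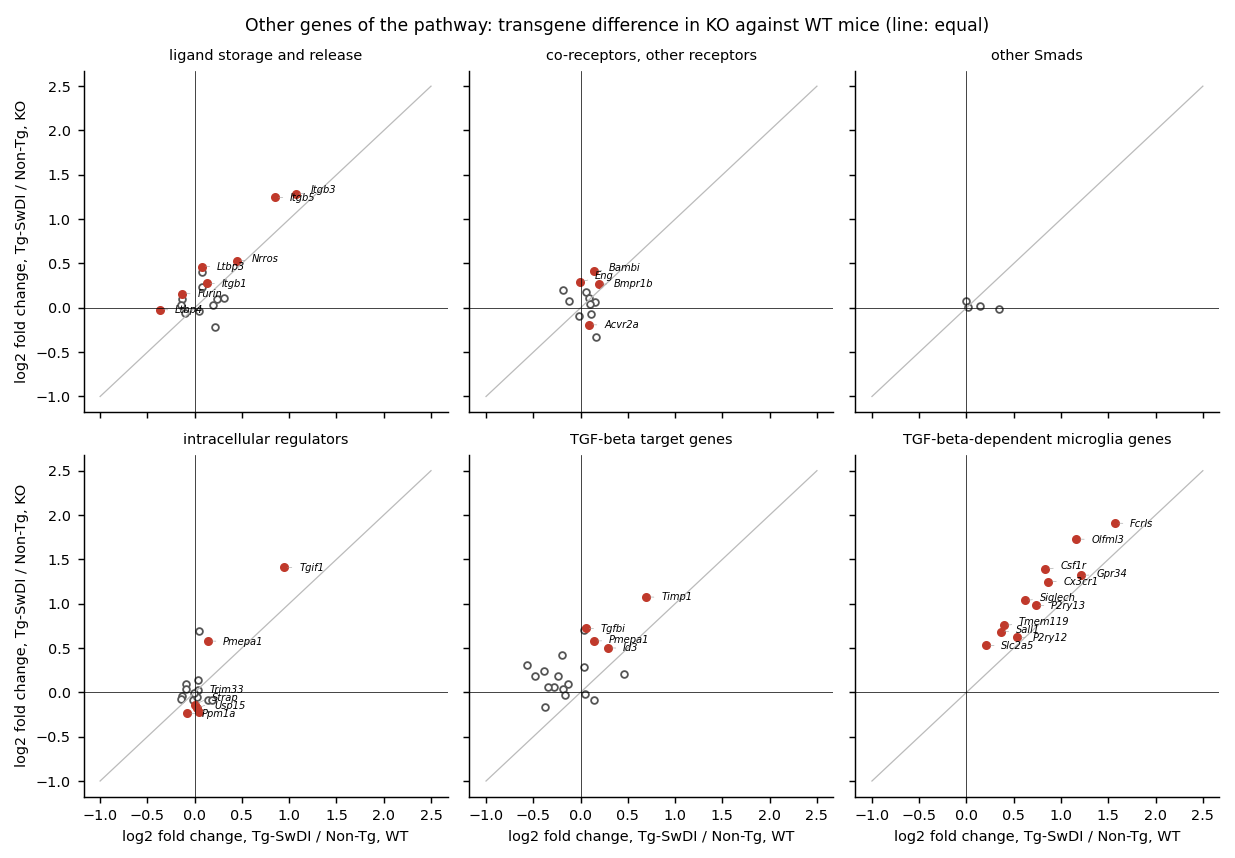
Log2 fold change of Tg-SwDI over Non-Tg in WT (x axis) and KO mice (y axis) for genes of 6 further pathway lists, with genes called in either genotype in red and named, and a line where both are equal. Integrin subunits Itgb5 and Itgb3, Tgif1 and the microglia genes such as Csf1r lie far from 0, and none of the other Smads was called.

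Patterns most like those of the called members were sought over the 20 mice as the Pearson correlation of log2 CPM, other members left out. Among them, for Tgfb1, were Laptm5 (r = 0.989), Cd68 (r = 0.986) and Ctsa (r = 0.985), and for Tgfbr1 Inpp5d (r = 0.986) and Vsir (r = 0.978). For Tgfbr2 they included Man2b1 (r = 0.985) and Ctsa (r = 0.982), and for Smad7 Inppl1 (r = 0.902), Lipa (r = 0.889) and Ampd3 (r = 0.888). Laptm5, Cd68, Inpp5d and Vsir are known from myeloid cells, and Ctsa, Man2b1 and Lipa encode lysosomal enzymes. The mice fall into Tg-SwDI and Non-Tg sets, and after removal of the group means the same correlations ranged from 0.668 to 0.861. As the genes were picked for a high r over these same mice, these values are descriptions and no test. Within groups Tgfb1 and Tgfbr2 correlated at 0.524, Tgfbr1 and Tgfbr2 at 0.370 and Tgfb1 and Tgfbr1 at 0.103 over the 20 mice, which share library depth and preparation.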

How the data were processed

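Stranded mRNA libraries from the left hippocampus of 20 female mice were analysed, 1 per mouse. The authors aligned reads with STAR (mm10) and deposited raw read counts per ENSEMBL gene from featureCounts, without normalization, and versions were not given in the sources used here. Symbols, positions and exon lengths came from GENCODE M21, which matched 38872 of 39056 identifiers (99.5%). Groups were taken from the labels, which do not tie replicate numbers to litters or batches.

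In edgeR 4.0.16 (R 4.3.3) counts were scaled by TMM factors, genes were kept by filterByExpr (at least 10 counts, total of at least 15) and the 4 groups shared 1 robust quasi-likelihood fit, which left 16 residual degrees of freedom. Adjusted p-values are Benjamini-Hochberg values over the 16107 genes (in an alternative, over the genes it tested), and a gene was called under 0.05. CPM used the same factors, RPKM the summed exon length of each gene, and log2 CPM a prior count of 2. Exact permutation tests used scipy 1.17.1 in Python 3.11.15. Alternatives were DESeq2 1.42.0, edgeR's exactTest, no filter, a mean CPM of at least 1, the compared groups alone, RLE factors, scaling by library size alone, a replicate block, a choroid plexus covariate, the trend on GC content and length removed per library (mgcv 1.9.3, a value for 99.8% of genes) and each mouse left out. Ranges of adjusted p and counts of lost calls leave out the block.

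The members and the lists were chosen with earlier results of these data known. All 9 members are named, of each list at most 4 called genes with the lowest adjusted p per comparison, and for each member called in a pairwise comparison the 3 genes most correlated with it. Other genes of the lists are given as counts, and Furin, Ltbp3, Trim33, Strap and Tgfbi complete the genes called with the transgene in KO mice in the storage, regulator and target lists. Thy1 and Xist served as label checks. Counting noise limits genes with few counts, such as Timp1, more than the members. Some genes and 1 site that meet these rules are not reported here.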

Additional observations from a re-analysis of the deposited data

Results flagged for a closer look

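A total of 4 results was set aside for a closer look. Among 40 groups of 5 mice, for 9 members and the Tgfb1 share in 4 groups each, 3 held a mouse far from the others, and about 1 in 20 is flagged by chance. Tgfb2 was at 71.5 CPM in WT Non-Tg replicate 7, Smad3 at 102 CPM in WT Non-Tg replicate 4 and Smad7 at 25.1 CPM in WT Tg-SwDI replicate 6, each the highest of its group. Leaving out these mice gave none of the 3 genes a new call. The effect of the transgene on Smad7 in WT mice was not called in any of 29 alternatives (edgeR and DESeq2 adjusted p from 0.165 to 0.604).

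The effect of the transgene on Tgfb1 differed between genotypes, with an interaction log2 of 0.80 (edgeR adjusted p = 0.0216), and its alternatives are given beside the result.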

How the results depend on the processing

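The number of members called did not move by more than 1.5 times in the transgene comparisons of KO mice (3 to 6) and WT mice (3), in KO against WT Non-Tg mice (0) or in both averages. Between KO and WT Tg-SwDI mice it fell from 2 to 1 with no filter or library size alone and ranged from 0 to 2 with 1 mouse left out. The interaction count went from 1 to 2 in DESeq2 and to 0 with the choroid plexus covariate, and from 0 to 2 with 1 mouse left out. Of the members called or called under an alternative, the averaged transgene difference of Smad4, -0.015 on the log2 scale, changed sign to 0.005 with the choroid plexus covariate, and with 1 mouse left out it ranged from -0.033 to 0.004, the latter without KO Tg-SwDI replicate 8. The comparisons of the Tgfb1 share kept their side of the threshold by longest transcript, although the share itself rose in every group (from 10.6% to 17.4% in WT Non-Tg mice), without division by length and with each mouse left out. Over all genes, the 320 calls between KO and WT Tg-SwDI mice became 733 in DESeq2, 560 with the choroid plexus covariate, 155 with GC and length trends removed and 58 with those groups alone, and 78 to 701 with 1 mouse left out. The 98 interaction calls became 482, 18 and 36 under the first 3 of these, and 14 to 500 with 1 mouse left out. With library size alone there were 59 interaction calls, and with the replicate block 38, and 8 between KO and WT Tg-SwDI mice. For the transgene, the choroid plexus covariate took 3351 calls in KO mice to 1192 and 2766 averaged calls to 1366, and removing GC and length trends took the latter to 4958. The 13 averaged KO calls became 57 in DESeq2, 24 with no filter, 0 with the block and 4 to 25 with 1 mouse left out. Causes were not tested. Of 16 same-numbered pairs of mice, 2 correlated above 0.1 (range -0.404 to 0.154). Correlations this weak showed no pairing by number but cannot exclude shared litters or batches. With the number as a replicate block 0 members were called between KO and WT Tg-SwDI mice (Tgfb1 0.38, edgeR adjusted p = 0.230), while the other member counts held.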
